A study of Homo sapiens with 6 samples.

Results

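The matrix metalloproteinases (MMPs), the ADAM and ADAMTS proteases and their tissue inhibitors (TIMPs) were followed in cells labelled as the human papillary thyroid carcinoma line TPC-1. Members were the genes with a symbol of MMP, ADAM, ADAMTS or TIMP followed by digits and at most 1 letter on probe sets annotated with that gene alone, without antisense transcripts and pseudogenes. This gave 63 of the 18132 genes measured, on 159 probe sets: 16 secreted MMPs, 6 membrane-type MMPs, 12 ADAMs with protease activity, 7 ADAMs without it, 18 ADAMTS proteases and the 4 TIMPs. MMP23B, ADAM7 and ADAMTS7 were not analysed here, and the pseudogene ADAM3A was left out. The labels describe TPC-1 cells, grown in RPMI1640 with serum, that carry a lentivirus expressing either a control shRNA or an shRNA against FAM60A, the older name of SINHCAF. SINHCAF is a subunit of the SIN3-HDAC co-repressor complex. Each group has 3 RNA samples, each measured on an Affymetrix array of its own. The labels name no agent or allele other than these shRNAs, do not give the number of clones or shRNA sequences, and call the samples independent without naming separate cultures, so the p-values reflect only how far these 6 samples vary, and that variation may be technical.

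MMPs are zinc-dependent endopeptidases that are made as inactive proenzymes and cut collagens and other matrix proteins, either after secretion or, for the membrane types, at the cell surface. ADAMs are membrane-anchored relatives of which the active ones shed the outer parts of other surface proteins, such as growth factor precursors, Notch receptors and adhesion molecules. ADAMTS proteases are secreted and cut proteoglycans, procollagens or von Willebrand factor. TIMPs bind the active site of these proteases and block it, and the balance between protease and inhibitor, which also depends on activation of the proenzymes, sets how much matrix is cut.

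Every value below is a deposited log2 expression value relative to the median of its probe set over the 6 arrays, averaged over the probe sets of a gene, so a difference between groups can be read from it but not a level. A coarse level class of a probe set (log2 level of 2 to 4, 4 to 8, or 8 to 16) was read from the rounding of the deposited values, and the class of 2 to 4, which held 16 of 17 untargeted control tags, is near background. SINHCAF was higher, not lower, in the arrays labelled FAM60A shRNA, by 1.24 ± 0.038 on the log2 scale (SE, 3 arrays per group) or 2.36-fold (limma, adjusted p = 1.08e-06; two-sided exact permutation p = 0.1, the smallest that 3 against 3 arrays allow). The measured SINHCAF signal thus goes against the labels, and "higher" and "lower" below describe the arrays labelled FAM60A shRNA relative to the arrays labelled control shRNA, not a loss of SINHCAF. The RNA extraction protocol names DLD1, a colorectal cancer line, in place of TPC-1. Of 10 intestinal epithelial markers, CDX2, CDH17 and KRT20 had a probe set in the class of 8 to 16, 3 reached 4 to 8, VIL1, MUC2 and FABP1 lay wholly at 2 to 4, and the class of ASCL2 was not resolved. Of 9 thyroid markers measured, DIO1 had a probe set at 8 to 16, but 6 of its 7 probe sets lay at 2 to 4. A further 7 markers reached 4 to 8 (PAX8, TG, NKX2-1 and FOXE1 among them) and TSHR lay wholly at 2 to 4. Of the intestinal markers 6 were higher and 0 lower, and their mean log2 value ran from -0.43 to -0.36 in the arrays labelled control shRNA and from 0.37 to 0.38 in those labelled FAM60A shRNA, led by ASCL2 (log2 difference 2.2) and LGR5 (2.0). Of 9 thyroid markers 0 were higher and 1 lower (HHEX, -0.97), with means from 0.048 to 0.061 and from -0.066 to -0.059. Of 9 leukocyte markers 2 were higher (CD68, 0.26, and CD79A, 0.14), of 8 endothelial markers 1 (EGFL7, 0.19) and of 10 fibroblast markers 0, and none of these 3 lists had a lower member. Over all genes 44.9% passed the test (adjusted p under 0.05), 19.8% higher and 25.0% lower. Of the intestinal markers 60.0% passed, of the thyroid 11.1%, of the leukocyte 22.2% and of the endothelial 12.5%. None of the probe sets of CD79A passed alone, and its call was lost with the median of probe sets (adjusted p = 0.0862), the largest-variance probe set (0.0813), no x_at or s_at probe sets (0.216) and no lowest class (0.0707), and without array 1 labelled control shRNA (0.0506) or array 2 (0.0609) or 3 (0.0509) labelled FAM60A shRNA. The part of these markers in the values of the proteases and inhibitors was not tested.

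Of the 63 members, 12 (19.0%) passed the test at an adjusted p under 0.05, 7 of them higher and 5 lower, against 44.9% of all genes (19.8% higher and 25.0% lower). All 4 TIMPs passed, and 8 of the 59 proteases (13.6%). None of the 12 changed as much as 2-fold. Few genes did: of the 18132 measured, 270 passed with a change of at least 2-fold. The median log2 difference of the members was 0.0045, against -0.012 over all genes, and their median absolute difference 0.063, against 0.12. The groups did not overlap in 18 members (28.6%), against 53.2% of all genes. This split moved with the scaling: repeated quantile normalization gave 10 higher and 3 lower members, and cyclic loess 11 and 2. Across scalings the median of all genes lay between -0.012 and 0.014.

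**Figure D1:**
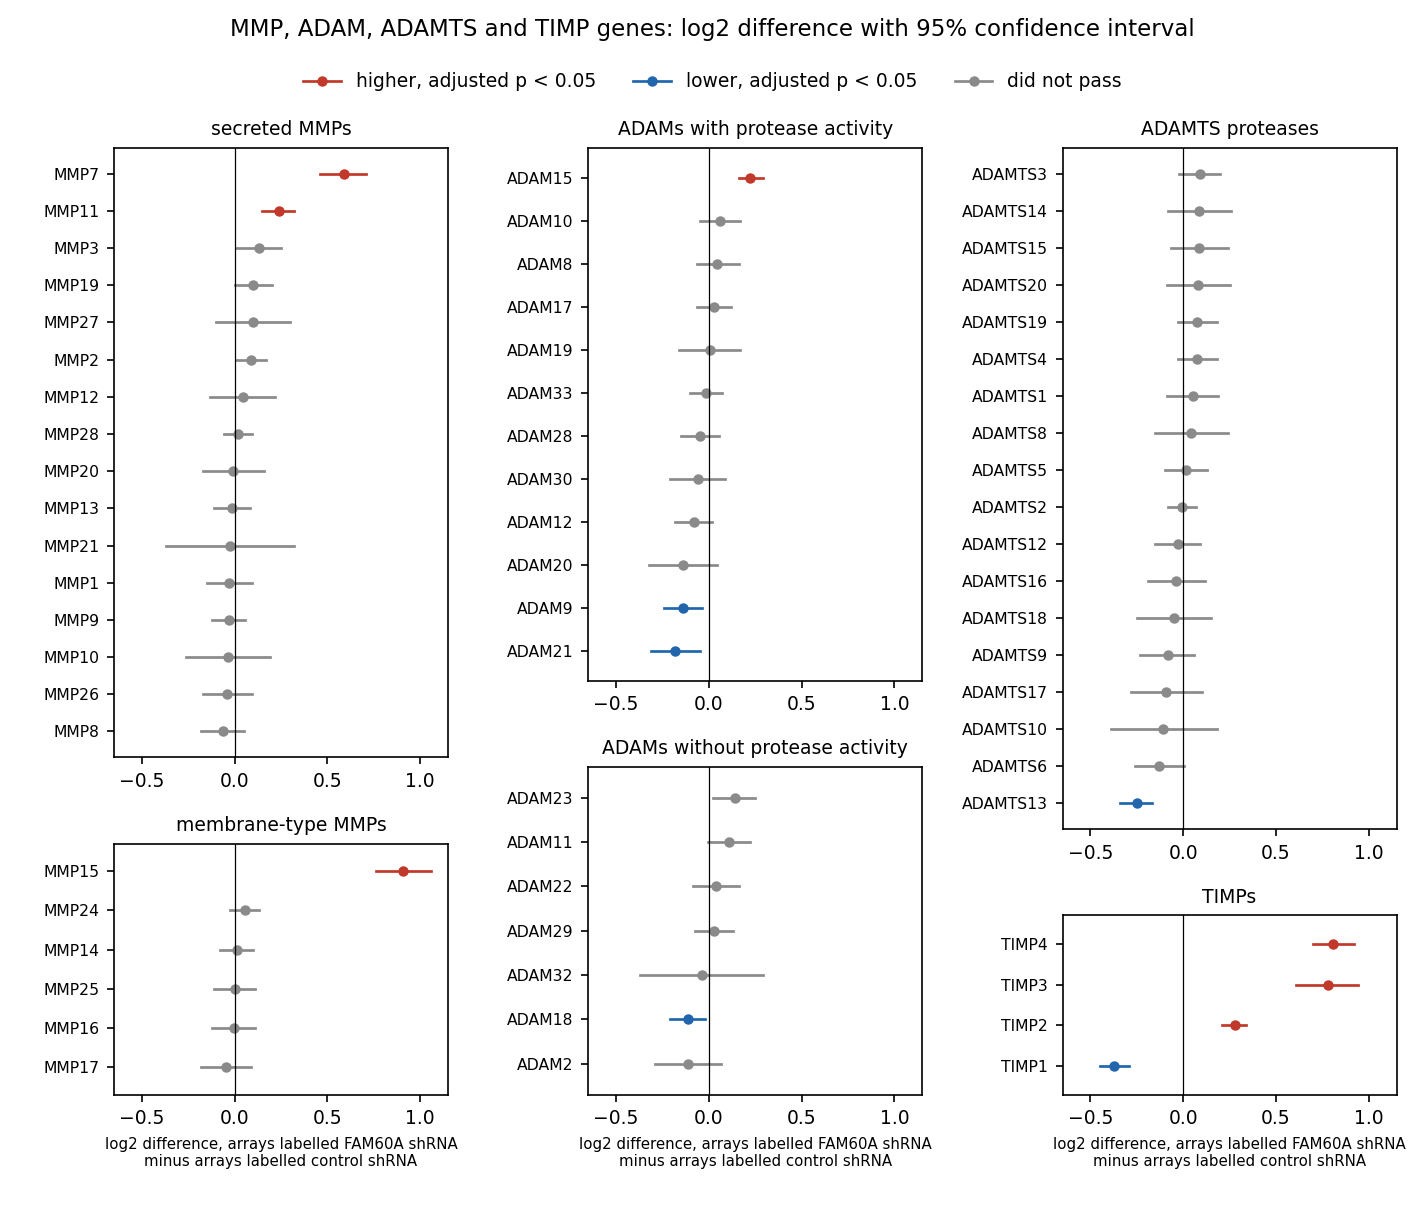
The log2 difference of each of the 63 genes (FAM60A shRNA label minus control shRNA label, horizontal axis) is drawn as a point with its 95% confidence interval, by role. The TIMPs, MMP15 and MMP7 stand farthest from 0, while most proteases lie between -0.14 and 0.14 and did not pass.

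Low levels go with few calls in these arrays, and the members were often low. Of the members' probe sets 73 (45.9%) lay in the class of 2 to 4, against 25.9% of all probe sets named with 1 gene, with 67 in the class of 4 to 8 and 19 in that of 8 to 16. Of 21 members with every probe set at 2 to 4, 2 passed (9.52%, against 9.84% of all such genes), ADAM18 and ADAM21. The interstitial collagenase MMP1, the stromelysins MMP3 and MMP10 and the neutrophil collagenase MMP8 were in this class and did not pass. Of 31 members whose highest probe set lay at 4 to 8, 6 passed (19.4%, against 41.7%), and of 11 with a probe set at 8 to 16, 4 passed (36.4%, against 67.1%). A value near 0 in the lowest class does not show that a transcript was unchanged.

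**Figure D2:**
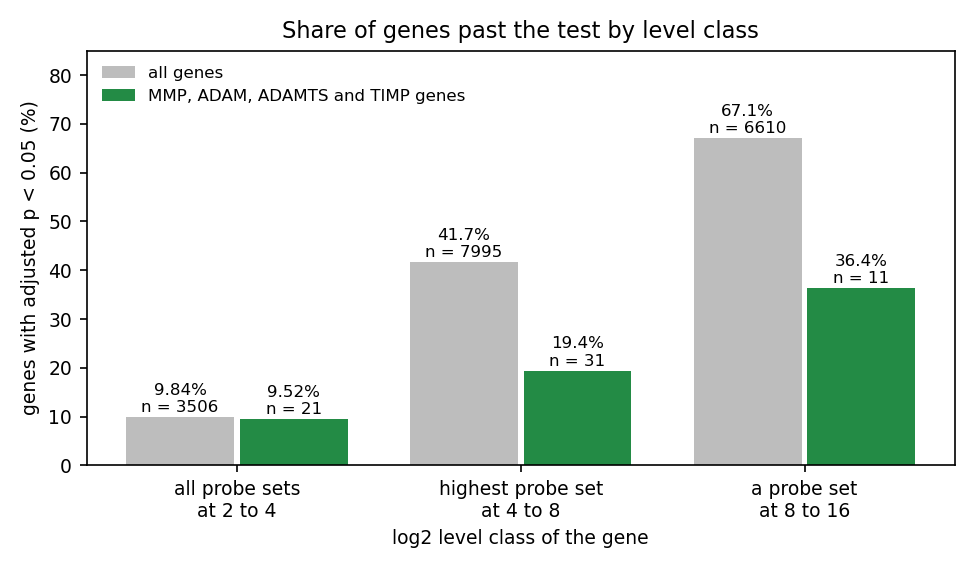
Bars give the percentage of genes with an adjusted p under 0.05 in each level class, for all genes (grey) and for the 63 members (green), with the number of genes above each bar. The member share is close to that of all genes at 2 to 4 (9.52% and 9.84%) and lower at 4 to 8 (19.4% and 41.7%) and at 8 to 16 (36.4% and 67.1%).

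Among the secreted MMPs, matrilysin MMP7 and stromelysin-3 MMP11 were higher and the other 14 of 16 did not pass. The share that passed was 12.5%, against 44.9% of all genes. The number past the test was 4 after repeated quantile normalization (with MMP2 and MMP3), 5 after cyclic loess (with MMP2, MMP3 and MMP19), 4 without the lowest class (with MMP2, and MMP13 as lower, -0.17) and 1 without x_at and s_at probe sets. MMP7, a small epithelial protease that lacks the hemopexin domain, stood at -0.24, -0.28 and -0.31 in the arrays labelled control shRNA and at 0.37, 0.37 and 0.19 in the arrays labelled FAM60A shRNA. The groups did not overlap, and array 3 labelled FAM60A shRNA was the lowest of its group. MMP7 was 1.5-fold higher (95% confidence interval 1.37 to 1.64), its log2 difference being 0.59 ± 0.055 (SE, 3 arrays per group; limma, adjusted p = 1.08e-04). Its 4 probe sets were unequal: 3 were higher, with log2 differences of 0.63, 0.72 and 1.12, and the fourth stood at -0.14 and did not pass. The probe sets at 0.72 and -0.14 lay in the class of 2 to 4, and those at 0.63 and 1.12 in the class of 4 to 8. MMP11, which is activated by furin inside the cell, stood at -0.15, -0.10 and -0.070 against 0.17, 0.13 and 0.092. It was 1.18-fold higher (1.11 to 1.25), with a log2 difference of 0.24 ± 0.037 (limma, adjusted p = 0.0014). This call came from 1 of its 2 probe sets (0.41, against 0.058 for the other), and when x_at and s_at probe sets, which can share sequence with other transcripts, were left out MMP11 did not pass (0.058, adjusted p = 0.522).

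The 14 secreted MMPs that did not pass had log2 differences between -0.063 (MMP8) and 0.13 (MMP3). MMP3 passed as higher after quantile normalization (0.15), after cyclic loess (0.16) and with the replicate number as a block (0.13), and MMP19 (0.10) after cyclic loess (0.13). The gelatinases that cut basement membrane collagen were among them, MMP2 at 0.088 (95% confidence interval 0.0064 to 0.17, adjusted p = 0.0783) and MMP9 at -0.030 (-0.12 to 0.058, adjusted p = 0.583). The arrays did not overlap for MMP2, which stood at -0.10, -0.030 and -0.022 against 0.034, 0.061 and 0.019, and it passed as higher under 3 other settings: repeated quantile normalization (0.11, adjusted p = 0.0351), cyclic loess (0.11, adjusted p = 0.0326) and no probe sets of the lowest class (0.11, adjusted p = 0.0481). Collagenase MMP1 stood at -0.030 (-0.15 to 0.094, adjusted p = 0.699), with both probe sets in the lowest class. MMP7, MMP20, MMP27, MMP8, MMP10, MMP1, MMP3, MMP12 and MMP13 neighbour each other on chromosome 11. Of these 9 genes MMP7 alone passed (11.1%, against 44.9% of all genes), with a median log2 difference of -0.0069 over the cluster.

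The promoters of MMP7 and of MMP10, from the same cluster, are shown because both hold an AP-1 motif (TGANTCA, read by FOS and JUN proteins) and a TATA box (TATAAA) at nearly the same positions, and that of MMP15 because it is the protease with the largest difference. Each line gives the 250 bases before the gene start from RefSeq (GRCh38.p14), in the direction of the gene, with matches to TGANTCA, to TATAAA and to AGGAAG (the PEA3 motif of ETS factors) on either strand in capitals; no matches overlap. MMP7 is at chr11:102530748-102530997 on the minus strand, MMP10 at chr11:102780629-102780878 on the minus strand and MMP15 at chr16:58025504-58025753 on the plus strand.
MMP7: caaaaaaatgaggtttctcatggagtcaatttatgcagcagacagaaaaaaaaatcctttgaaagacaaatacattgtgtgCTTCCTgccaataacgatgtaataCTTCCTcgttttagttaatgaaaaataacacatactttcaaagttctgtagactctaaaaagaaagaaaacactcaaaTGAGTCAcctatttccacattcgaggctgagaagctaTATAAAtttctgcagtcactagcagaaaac
MMP10: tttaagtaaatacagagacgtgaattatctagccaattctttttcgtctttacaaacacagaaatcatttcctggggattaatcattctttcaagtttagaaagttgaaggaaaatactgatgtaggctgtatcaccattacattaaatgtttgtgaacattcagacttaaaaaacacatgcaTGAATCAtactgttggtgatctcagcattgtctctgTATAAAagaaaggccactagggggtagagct
MMP15: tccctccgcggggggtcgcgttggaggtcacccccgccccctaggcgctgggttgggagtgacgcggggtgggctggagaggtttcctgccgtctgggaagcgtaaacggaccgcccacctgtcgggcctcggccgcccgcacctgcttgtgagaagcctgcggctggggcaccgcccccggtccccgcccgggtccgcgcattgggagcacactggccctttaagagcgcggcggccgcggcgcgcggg

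Counted back from the gene start, the AP-1 motif began at -67 in MMP7 and at -67 in MMP10, and the TATA box at -30 and -31. MMP7 also had AGGAAG, on the other strand, at -169 and -145, MMP10 had none, and none of the 3 motifs was found in the window of MMP15. MMP10, with its only probe set in the lowest class, had a log2 difference of -0.034 ± 0.095 (limma, adjusted p = 0.816), a value so near background that it cannot be set against that of MMP7. Of 35116 promoter windows of this length, 6.57% held TGANTCA, 10.7% TATAAA and 28.7% AGGAAG. Among the 37 members with a promoter in the table, 4, 7 and 9 held them. A match says only that these letters are present in the window.

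Of the factors known to act on MMP promoters, 12 of 16 passed (75.0%, against 44.9% of all genes), 6 higher and 6 lower. These genes have high levels: 14 had a probe set at 8 to 16, and of those 71.4% passed, against 67.1% of all genes in that class. ETS2 (log2 difference 1.02 ± 0.030), the FOS-related FOSL2 (0.70 ± 0.028) and RUNX2 (0.63 ± 0.035, and 1.07 with its largest-variance probe set) were higher, and the immediate early factor EGR1 (-0.60 ± 0.030) was lower. Among the other AP-1 subunits JUN (0.44), JUNB (0.54) and JUND (0.19) were higher, FOS (-0.49) and FOSB (-0.19) lower, and FOSL1 (0.073) did not pass. Unlike ETS2, the ETS factors ETS1 (-0.43), ETV1 (-0.39) and ETV5 (-0.12) were lower, and ETV4 (0.00093) did not pass. The level of transcripts does not measure their binding.

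MMP15, a transmembrane MMP also called MT2-MMP, was higher. Of the 6 membrane-type MMPs only MMP15 passed (16.7%, against 44.9% of all genes). It stood at -0.51, -0.42 and -0.43 in the arrays labelled control shRNA and at 0.41, 0.36 and 0.59 in the arrays labelled FAM60A shRNA. The groups lay far apart, with array 3 labelled FAM60A shRNA the highest. The signal was 1.87-fold higher (95% confidence interval 1.69 to 2.08), with a log2 difference of 0.91 ± 0.064 (limma, adjusted p = 2.87e-05). Both probe sets passed, at 1.29 and 0.52. The other 5, of which MMP16 passed with its largest-variance probe set (-0.24), lay between -0.048 (MMP17, held by a GPI anchor) and 0.054 (MMP24). MMP14, or MT1-MMP, the main surface activator of proMMP2, stood at 0.013 (-0.077 to 0.10, adjusted p = 0.828). Its 4 probe sets lay at -0.12, -0.090, 0.083 and 0.17, and the last passed as higher (adjusted p = 0.0224 over probe sets, of which 41.4% passed in all).

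**Figure D3:**
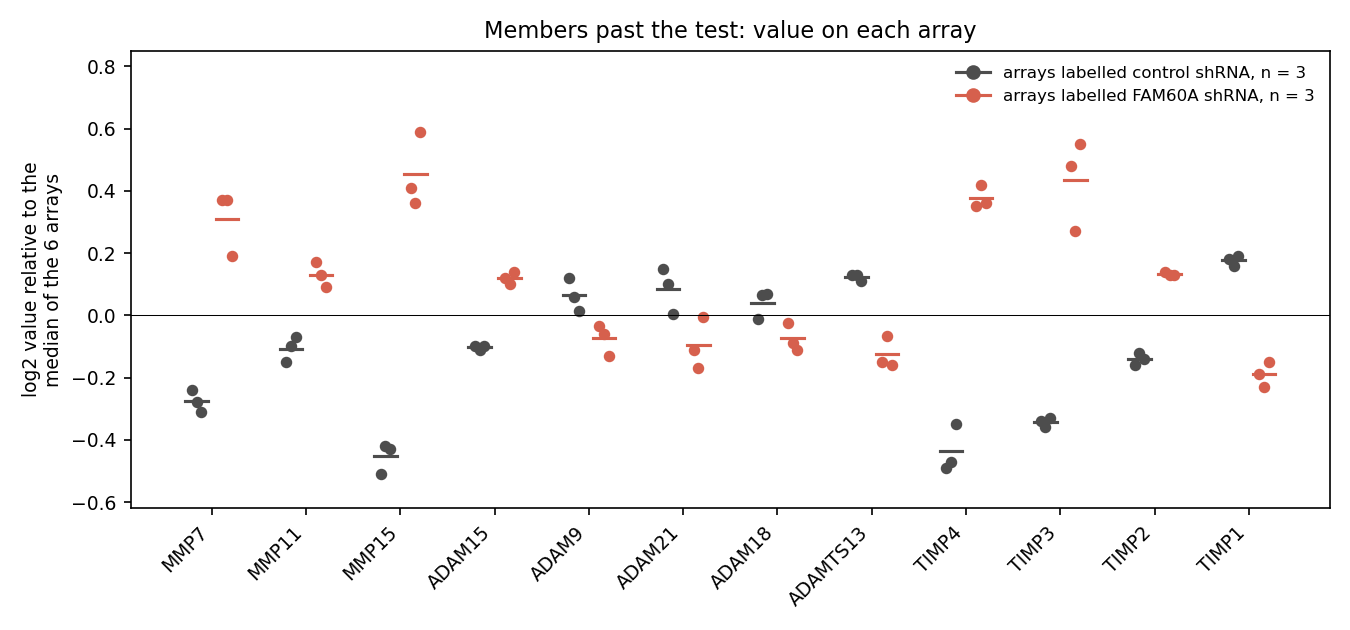
Each point is the log2 value of a gene on 1 array relative to the median of the 6 arrays (vertical axis), for the 12 members that passed; horizontal bars are means of 3 arrays. The labels do not overlap for any of the 12, which the choice of genes that passed favours, and the gap is narrow for ADAM9, ADAM21 and ADAM18.

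Among the 12 ADAMs with protease activity 25.0% passed, against 44.9% of all genes. ADAM15 was higher, ADAM9 and ADAM21 were lower and 9 did not pass. Of those 9, ADAM8 (0.046) passed with its most variable probe set (0.22) and ADAM20 (-0.14) without array 3 labelled control shRNA (-0.21). ADAM15, which carries an integrin-binding RGD motif in its disintegrin domain, stood at -0.10, -0.11 and -0.10 against 0.12, 0.10 and 0.14. It was 1.17-fold higher (1.11 to 1.23), with a log2 difference of 0.22 ± 0.029 (limma, adjusted p = 5.39e-04), and its 6 probe sets all lay above 0, between 0.11 and 0.35, of which 4 passed. ADAM9, a widely expressed sheddase, stood at 0.12, 0.058 and 0.014 against -0.034, -0.059 and -0.13. It was 1.1-fold lower (1.03 to 1.18; limma, adjusted p = 0.0323), with its 4 probe sets between -0.17 and -0.10. Its call was lost after quantile normalization (-0.12, adjusted p = 0.0696), after cyclic loess (-0.11, adjusted p = 0.0807), with the probe set of largest variance (-0.13, adjusted p = 0.207) and without any 1 of 4 arrays: array 1 (-0.11) or array 2 (-0.14) labelled control shRNA and array 2 (-0.15) or array 3 (-0.11) labelled FAM60A shRNA. ADAM21, a gene with mostly testicular expression, had a log2 difference of -0.18 ± 0.055 (limma, adjusted p = 0.0326) from 1 probe set in the lowest class. ADAM21 stood at 0.15, 0.10 and 0.0055 against -0.11, -0.17 and -0.0055, with hardly a gap between the groups. Its call was lost after cyclic loess (-0.15, adjusted p = 0.0579), with the probe set rule of largest variance (-0.18, adjusted p = 0.0508), with the replicate number as a block (-0.18, adjusted p = 0.0738), and without the first (-0.15) or second (-0.17) array labelled control shRNA or the first (-0.17) or second (-0.14) labelled FAM60A shRNA.

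ADAM10 and ADAM17, the main sheddases of Notch receptors, of growth factor precursors and of TNF, did not pass as genes. ADAM10 stood at 0.032, -0.058 and -0.10 against 0.041, -0.036 and 0.047, with a log2 difference of 0.059 (95% confidence interval -0.048 to 0.17; limma, adjusted p = 0.351), and 0 of its 4 probe sets passed. ADAM17 had a log2 difference of 0.028 (-0.063 to 0.12, adjusted p = 0.614), but its 4 probe sets all passed, in opposite directions. The probe set at 8 to 16 was higher by 0.45 ± 0.048 (SE; limma over probe sets, adjusted p = 2.88e-04), with values of -0.19, -0.25 and -0.22 against 0.30, 0.19 and 0.19, and one at 4 to 8 was higher by 0.24 ± 0.062 (adjusted p = 0.0191). The others, at 4 to 8 and at 2 to 4, both stood at -0.28 (SE 0.086 and 0.090; adjusted p = 0.0343 and 0.0400). The gene mean near 0 is therefore an average over unlike probe sets. With the probe set of largest variance ADAM17 was higher by 0.45 (adjusted p = 3.46e-04), and without the lowest level class by 0.13 (adjusted p = 0.0157). Probe sets past the test in both directions were seen in 3 of the 43 members with several probe sets, ADAM17, ADAMTS4 and TIMP2, against 3.72% of all such genes.

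**Figure D4:**
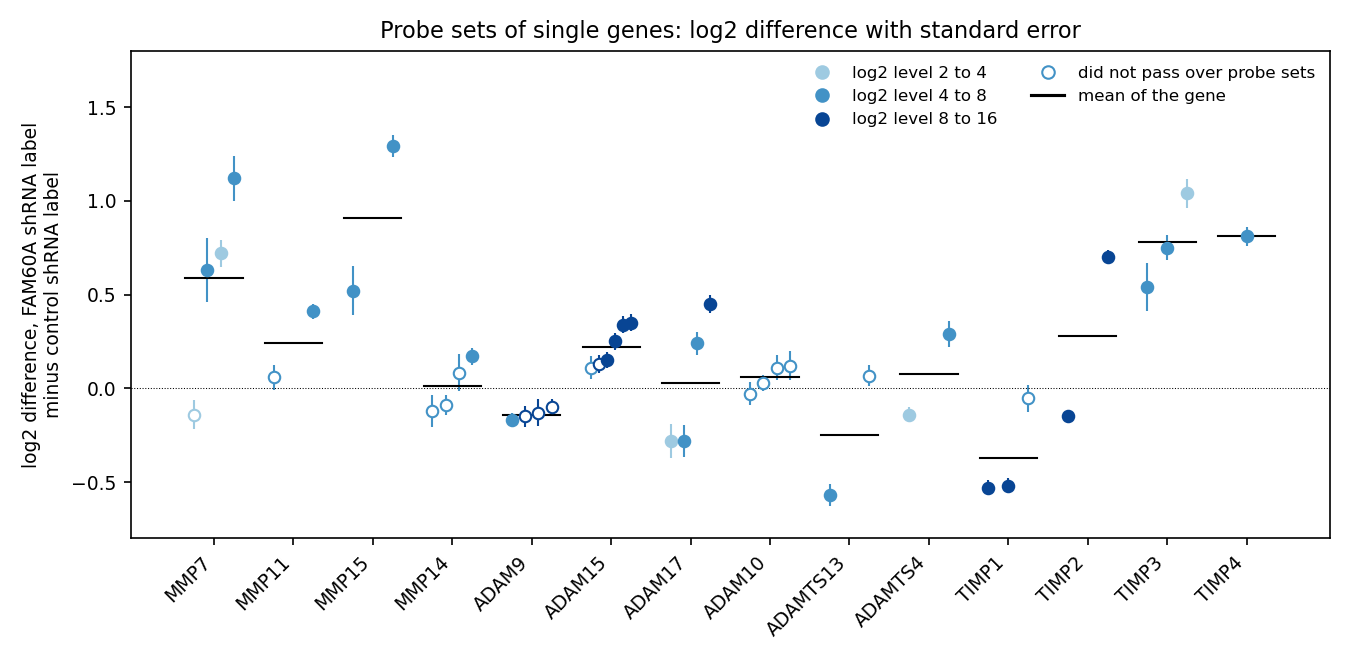
Each point is the log2 difference of 1 probe set (FAM60A shRNA label minus control shRNA label, vertical axis) with its standard error, shaded by level class; open points did not pass and black bars are gene means. Probe sets of ADAM17 (-0.28 to 0.45), ADAMTS4 (-0.14 and 0.29) and TIMP2 (-0.15 and 0.70) lie on both sides of 0.

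Of the partners that carry ADAM10 and ADAM17 to the cell surface 6 of 9 passed (66.7%, against 44.9% of all genes), 4 higher and 2 lower. Of the 7 with a probe set at 8 to 16, 71.4% passed, against 67.1% of all genes in that class. The tetraspanins TSPAN5, TSPAN10, TSPAN14, TSPAN15, TSPAN17 and TSPAN33 bind ADAM10 and steer its exit from the endoplasmic reticulum and its substrates. TSPAN5 stood at -0.39, -0.41 and -0.36 against 0.41, 0.39 and 0.36, and TSPAN14 at -0.39, -0.39 and -0.37 against 0.38, 0.35 and 0.38. Their log2 differences were 0.77 ± 0.032 and 0.75 ± 0.029 (limma, adjusted p = 3.11e-06 and 2.43e-06), and every probe set of both passed as higher. The size for TSPAN14 depends on the probe sets, at 0.33 without x_at and s_at probe sets and 1.3 with the one of largest variance. TSPAN15 was higher too (0.48 ± 0.048), whereas TSPAN33 was lower (-0.68 ± 0.066), with 0.30, 0.27 and 0.41 against -0.48, -0.31 and -0.27. Of the pseudoproteases that ADAM17 needs to mature, RHBDF2 (iRhom2) was higher (0.29 ± 0.044) and RHBDF1 (iRhom1) lower (-0.14 ± 0.042). Of 21 substrates that ADAMs shed, 13 passed (61.9%), 7 higher and 6 lower, and of the 12 with a probe set at 8 to 16, 75.0% passed. The EGF receptor ligands EREG (1.08 ± 0.040) and TGFA (0.31 ± 0.035) and the hyaluronan receptor CD44 (0.90 ± 0.032, with all 10 probe sets higher and 1.41 for the most variable one) rose, and MICA, a ligand of the NKG2D receptor, fell (-0.59 ± 0.036). All 3 probe sets of MICA are of the x_at or s_at kind, which can share sequence with other transcripts. Shedding itself was not measured.

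The 7 ADAMs without protease activity, which act in adhesion of neurons and of sperm, gave 1 call (14.3%, against 44.9% of all genes). ADAM18 had a log2 difference of -0.11 ± 0.039 (limma, adjusted p = 0.0497), with its 3 probe sets all in the lowest class and none of them past the test alone. Its arrays stood at -0.012, 0.065 and 0.067 against -0.024, -0.089 and -0.11, just short of overlap. The call was lost under most other settings, with values from -0.19 to -0.089. The other 6 lay between -0.11 (ADAM2) and 0.14 (ADAM23, adjusted p = 0.0568). ADAM23 passed as higher after quantile normalization (0.15), after cyclic loess (0.16) and without array 3 labelled FAM60A shRNA (0.17), and ADAM11 (0.11) with its most variable probe set (0.33) and without array 2 labelled control shRNA (0.15). All but ADAM11 had every probe set at 2 to 4.

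Of the 18 ADAMTS proteases 1 passed (5.56%, against 44.9% of all genes). The number was 3 with the probe set of largest variance, 4 without the lowest class, and 2 with the replicate number as a block or without array 2 labelled FAM60A shRNA (with ADAMTS6, at -0.13 and -0.18). ADAMTS13, which cuts von Willebrand factor and is made mainly in the liver, stood at 0.13, 0.13 and 0.11 against -0.15, -0.065 and -0.16. It was 1.19-fold lower (1.12 to 1.26), with a log2 difference of -0.25 ± 0.036 (limma, adjusted p = 9.66e-04). The fall came from 1 probe set (-0.57 ± 0.058), while the other stood at 0.066 and did not pass. The other 17 lay between -0.13 (ADAMTS6) and 0.089 (ADAMTS3), with adjusted p-values from 0.105 upwards. They include the aggrecan-cutting ADAMTS1 (0.053), ADAMTS4 (0.076) and ADAMTS5 (0.015) and the procollagen-processing ADAMTS2 (-0.0080), ADAMTS3 and ADAMTS14 (0.088). ADAMTS4 had a lower probe set at 2 to 4 (-0.14) and a higher one at 4 to 8 (0.29). Both are named x_at, a kind that can share sequence with other transcripts, so ADAMTS4 has no value without such probe sets. ADAMTS12 (-0.030) had a lower probe set at 2 to 4 (-0.30, adjusted p = 0.00327 over probe sets) and another at 4 to 8 that did not pass (0.24, adjusted p = 0.0593). As a gene it was called lower by its most variable probe set (-0.30) and higher without the lowest class (0.24). ADAMTS4 passed under both of these settings too, and ADAMTS3 without the lowest class. No ADAMTS gene had a probe set at 8 to 16, and 5 had all theirs at 2 to 4.

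All 4 TIMPs passed, against 44.9% of all genes, with TIMP4, TIMP3 and TIMP2 higher and TIMP1 lower. The median log2 difference of the TIMPs was 0.53. TIMP4 stood at -0.49, -0.47 and -0.35 against 0.35, 0.42 and 0.36 and was 1.75-fold higher (95% confidence interval 1.62 to 1.89), with a log2 difference of 0.81 ± 0.046 (limma, adjusted p = 1.08e-05) from its only probe set. TIMP3, which binds to the matrix and inhibits ADAM17 and ADAMTS proteases as well as MMPs, stood at -0.34, -0.36 and -0.33 against 0.48, 0.27 and 0.55. It was 1.71-fold higher (1.53 to 1.92), with a log2 difference of 0.78 ± 0.070 (limma, adjusted p = 8.84e-05), and its 3 probe sets all passed, at 0.54, 0.75 and 1.04. The probe set at 1.04 is named s_at and lay in the class of 2 to 4, and without it TIMP3 stood at 0.65 and still passed. The arrays labelled control shRNA lay close together, whereas those labelled FAM60A shRNA were more widely spread, with the second the lowest.

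TIMP1, the soluble inhibitor known to form a complex with proMMP9, stood at 0.18, 0.16 and 0.19 against -0.19, -0.23 and -0.15. It was 1.29-fold lower (1.22 to 1.36), with a log2 difference of -0.37 ± 0.034 (limma, adjusted p = 9.74e-05). Both of its probe sets at 8 to 16 fell, by 0.52 and 0.53, and the third, at 4 to 8, stood at -0.054 and did not pass. TIMP2, which takes part in activation of proMMP2 by MMP14, stood at -0.16, -0.12 and -0.14 against 0.14, 0.13 and 0.13, with a log2 difference of 0.28 ± 0.029 (limma, adjusted p = 1.94e-04). Its direction depends on the probe set. One, named s_at, was higher by 0.70 ± 0.038 and the other lower (-0.15 ± 0.036), both at 8 to 16 and both past the test (adjusted p = 1.45e-05 and 0.0141 over probe sets), and without the s_at probe set TIMP2 was lower (-0.15, adjusted p = 0.00798). The calls of TIMP1, TIMP3 and TIMP4 and their directions held under all 14 other settings.

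The promoters of TIMP1, which was lower, and of TIMP4, which was higher, are shown as the pair of inhibitors with opposite differences. They are the 250 bases before each gene start from RefSeq (GRCh38.p14), TIMP1 at chrX:47582186-47582435 on the plus strand and TIMP4 at chr3:12158913-12159162 on the minus strand, with matches to the same 3 motifs in capitals.
TIMP1: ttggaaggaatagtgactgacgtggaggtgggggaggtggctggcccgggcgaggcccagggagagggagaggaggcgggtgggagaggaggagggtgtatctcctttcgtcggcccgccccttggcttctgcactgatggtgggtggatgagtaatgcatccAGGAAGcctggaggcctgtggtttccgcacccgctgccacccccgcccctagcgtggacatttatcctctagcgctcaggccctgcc
TIMP4: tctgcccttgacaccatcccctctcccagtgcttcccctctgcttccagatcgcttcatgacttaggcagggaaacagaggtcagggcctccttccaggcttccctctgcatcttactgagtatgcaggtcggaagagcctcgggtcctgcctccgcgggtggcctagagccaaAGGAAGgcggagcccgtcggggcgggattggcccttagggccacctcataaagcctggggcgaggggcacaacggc

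Both windows hold AGGAAG, beginning at -87 in TIMP1 and at -76 in TIMP4, and neither TGANTCA nor TATAAA, so this motif search does not separate the inhibitor that was lower from the one that was higher.

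Some other inhibitors and activators of these proteases also differed. RECK, a GPI-anchored inhibitor of MMPs and ADAM10, stood at 0.42, 0.44 and 0.33 against -0.31, -0.47 and -0.28, a log2 difference of -0.75 ± 0.059 (limma, adjusted p = 4.7e-05), with 2 of its 3 probe sets lower. Of these 3 probe sets 2 lay at 2 to 4, among them the most variable one (-1.37). Without that class RECK stood at -0.67 and was still called lower. SERPINE2 (0.25 ± 0.037), an inhibitor of plasminogen activators and thrombin, and the broad inhibitor A2M (0.23 ± 0.052, from 1 probe set at 2 to 4) were higher. In all 3 of 9 measured inhibitors outside the TIMPs passed (33.3%, against 44.9% of all genes), 2 higher and 1 lower. Of 9 activators and inducers 8 passed (88.9%), 4 higher and 4 lower. All 5 with a probe set at 8 to 16 were among them, a class in which 67.1% of all genes passed. FURIN, the convertase that removes the propeptide of membrane-type MMPs, MMP11 and many ADAMs, stood at -0.29, -0.34 and -0.27 against 0.28, 0.27 and 0.33, with a log2 difference of 0.59 ± 0.034 (limma, adjusted p = 1.2e-05), and the related PCSK7 was higher as well (0.41 ± 0.039). FURIN and PCSK7 each rest on 1 probe set, of the x_at or s_at kind that can share sequence with other transcripts. The urokinase gene PLAU, whose product makes plasmin, was higher (0.79 ± 0.065, and 1.19 with its largest-variance probe set) and its receptor PLAUR lower (-0.38 ± 0.031, with all 5 probe sets lower). No activity of any protease was measured.

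**Figure D5:**
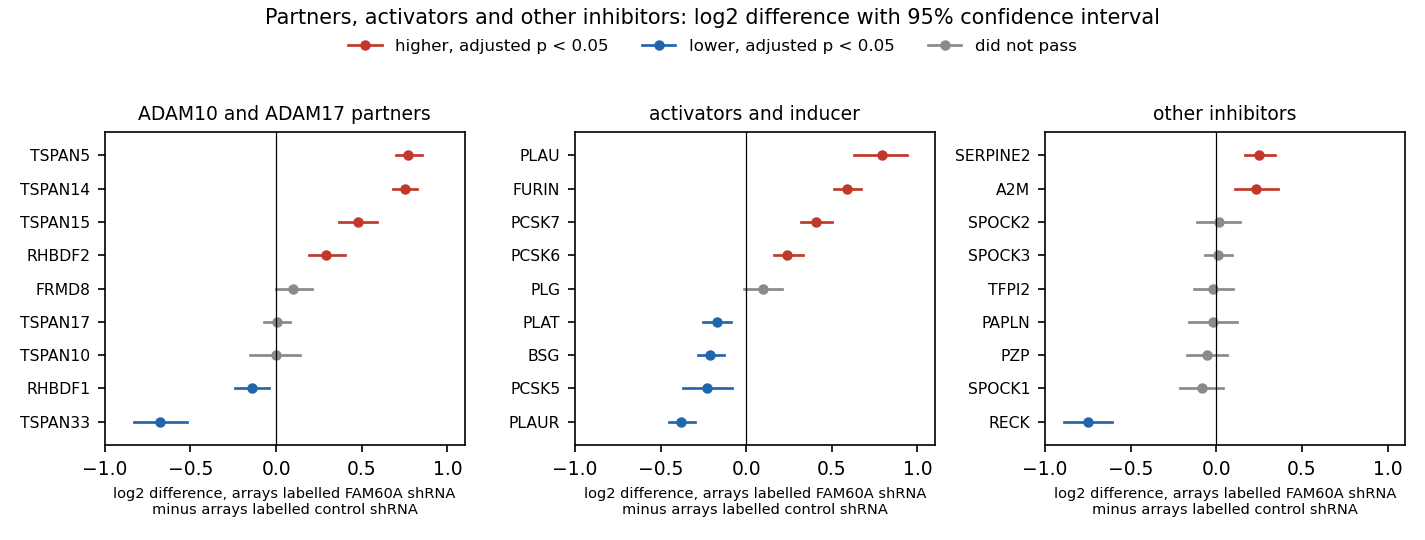
Points give the log2 difference of genes whose products escort, activate or inhibit the proteases (FAM60A shRNA label minus control shRNA label, horizontal axis) with 95% confidence intervals. TSPAN5 (0.77), PLAU (0.79) and FURIN (0.59) lie to the right of 0, and RECK (-0.75) and TSPAN33 (-0.68) to the left.

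Of 20 matrix proteins that the proteases cut, 7 passed (35.0%, against 44.9% of all genes), 6 higher and 1 lower. Thrombospondin THBS1 (log2 difference 0.72 ± 0.032, and 1.32 with its largest-variance probe set) and the basement membrane collagens COL4A2 (0.57 ± 0.038) and COL4A1 (0.38 ± 0.071) were higher, and the laminin chain LAMB3 was lower (-0.29 ± 0.031). Leaving out x_at and s_at probe sets ended the call of COL4A1 (0.16, adjusted p = 0.288), and its largest-variance probe set gave 0.82.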

How the data were processed

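Total RNA of 6 samples was measured on Affymetrix arrays and grouped by the sample titles, 3 per group. The deposited table holds log2 expression values of 49395 probe sets, made by the authors with RMA per the submitters' processing notes and centred on each probe set's median over the 6 arrays, as the values show. Which program ran RMA is not given in the sources used here; log base 2 was assumed since RMA returns it. Arrays have no read depth, and precision rests on 3 arrays per group.

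Probe sets were named by GEO's platform table; 44988 carried 1 symbol and were averaged to 18132 genes. The comparison used limma 3.58.1 in R 4.3.3 (lmFit, eBayes), with Benjamini-Hochberg adjustment over all genes, a threshold of 0.05 and no further normalization. In simulated data for 18132 genes, of which 50 were changed at each of the sizes 0.25, 0.5, 1 and 2, the fit called 22, 44, 50 and 50 of them. Far fewer genes changed there than the 44.9% that passed in these arrays, which made the adjustment stricter. These counts therefore do not give the sensitivity of the comparison. Level classes come from the step of single-precision rounding, shared by at least 4 values; 98.3%, 98.2% and 100% of simulated probe sets at 2 to 4, 4 to 8 and 8 to 16 came out in their class.

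The named genes are SINHCAF, the members that passed, MMP1, MMP2, MMP7, MMP9, MMP14, ADAM10, ADAM17, the TIMPs and up to 4 genes per further list with the smallest p; other genes were named after their values were seen. Members and lists were chosen with earlier results of these data known. The alternatives were other scalings, probe set rules and filters, a replicate block, robust eBayes and leaving out each array.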

Additional observations from a re-analysis of the deposited data

How the results depend on the processing

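Of 733 gene results under 14 other settings (53 genes), 680 kept their direction and side of the threshold, 42 lost the call, 5 gained it and 6 changed sign. The changes of sign were TIMP2 without x_at and s_at probe sets (-0.15) and, with no call in either case, MMP14 (-0.011 without those probe sets, -0.0070 without the second array labelled control shRNA, -0.0096 without the third labelled FAM60A shRNA) and MMP1 (0.0048 without the first array labelled control shRNA, 0.0044 without the first labelled FAM60A shRNA). Members higher and lower, 7 and 5 in the main result, were 10 and 3 after another quantile normalization, 11 and 2 after cyclic loess, 11 higher with the probe set of largest variance and 12 higher without the lowest level class. When each array was left out in turn, members past the test numbered from 10 to 12, 7 to 8 higher and 2 to 5 lower, all genes past it from 7365 to 7700, and the log2 difference of SINHCAF ran from 1.22 to 1.27, that of MMP1 from -0.074 to 0.0048 and that of MMP14 from -0.0096 to 0.034. The replicate numbers gave correlations of deviations of 0.16, 0.06 and 0.08, and each correlated best with its own number. No cutoff for pairing was set, and the main fit was not paired. With the replicate number as a block 8170 genes passed and 12 members, of which 10 were shared, with ADAM18 and ADAM21 lost. The cause of these shifts was not tested. Level limits the 21 of 63 members with every probe set in the lowest class.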

Other observations

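Probe sets annotated with more than 1 gene were kept out of the genes. The probe set shared by ADAM21 and its pseudogene ADAM21P1 stood at 0.23, 0.0063 and 0.039 in the arrays labelled control shRNA and at -0.10, -0.039 and -0.0063 in those labelled FAM60A shRNA, without overlap. The probe set shared by MMP23B and MMP23A stood at 0.16, -0.31 and -0.018 against -0.049, 0.17 and 0.018, with overlap.

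Among 16 metalloproteases and ADAMTS-like genes related to the families, 3 passed (18.8%), a share like that of the members (19.0%) and below that of all genes (44.9%). The endothelin-converting enzyme ECE1 (log2 difference 0.28 ± 0.035, with 3 of 5 probe sets higher and 1 lower, and 0.50 for their median) was higher and THSD4, an ADAMTS-like protein of fibrillin microfibrils, lower (-0.22 ± 0.031; limma, adjusted p = 4.67e-04 and 9.13e-04). ADAMDEC1 (0.11 ± 0.032) passed but lost its call under several settings, for example the median of its probe sets (0.079, adjusted p = 0.115). BMP1 (0.041), the meprins MEP1A (-0.031) and MEP1B (-0.073) and neprilysin MME (-0.020) did not pass. Of the 5 probe sets of BMP1, 1 was higher and 1 lower, and every probe set of the meprins lay at 2 to 4.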
